A study of Mus musculus with 15 samples.

Results

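The 10 genes described here encode TFIIH subunits, the largest subunit of RNA polymerase II, the polymerase's kinases with a cyclin, and the repair endonuclease ERCC5. All were measured in mouse hearts with a muscle-specific knockout of Mnat1, the gene of MAT1. The genes were Mnat1, Cdk7, Ercc3, Ercc5, Gtf2h1, Gtf2h4, Cdk8, Cdk9, Ccnt1 and Polr2a. They were taken by symbol as 10 of the 8251 genes that the array names with a single symbol. Every probe set naming exactly 1 of these genes was used, which gave 13 of the 12422 probe sets of the array. The CKO hearts were αMHC-Cre+/0; MAT1F/F, so both alleles of Mnat1 were flanked by loxP sites, and the control hearts came from αMHC-Cre+/0; MAT1F/+ littermates with 1 wild-type allele. Both groups carried the same Cre under the αMHC promoter, which is active in heart muscle cells, so the other cells of the heart kept their Mnat1. There were 5 CKO and 3 control arrays at 4 weeks of age, and 4 CKO and 3 control arrays at 2 weeks. Each array measured total RNA of heart tissue as 1 intensity per probe set. The labels do not say whether the arrays of a group represent different mice, and p-values measure only the spread between these samples, which may be technical.

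TFIIH is the general transcription factor that opens promoter DNA and phosphorylates the tail of RNA polymerase II. Its core holds the helicase ERCC3 and the subunits GTF2H1 and GTF2H4, and its kinase module is CDK7 with cyclin H and MAT1, the factor that assembles them. CDK8 works in the kinase module of the Mediator complex, and CDK9 with cyclin T1 forms P-TEFb, the kinase that releases paused polymerase. All of these kinases act on the long repeated tail of POLR2A, the largest subunit of RNA polymerase II. P-TEFb activity is known to rise in the hypertrophic heart. ERCC5 is the endonuclease that cuts damaged DNA 3′ of a lesion in nucleotide excision repair, a pathway that shares the TFIIH core.

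Clustering by correlation split the arrays into sets of 6 (array set 1) and 9 (array set 2), a division that the labels do not give and whose origin is unknown. Any 2 arrays of a set correlated at 0.937 or more, and any 2 arrays of different sets at 0.924 or less. Array set 1 held 2 CKO arrays and 1 control array at each age, and array set 2 held the rest, so that the sets crossed the groups. Array medians ran from 173.7 to 216.8. Sex, which the labels do not give, was read from Xist against Y-linked probe sets. It was female for 4 of 5 CKO and 1 of 3 control arrays at 4 weeks, and for 1 of 4 CKO and 1 of 3 control arrays at 2 weeks. Results are given from a fit without a block, which is the principal test, and from a fit blocked on array set. Differences are in log2(intensity + 16) with the standard error of the fit, a call is a limma adjusted p under 0.05 over all 12422 probe sets, and intervals are the difference plus or minus 2 standard errors.

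At 4 weeks, 2 of the 13 probe sets were called, both higher in CKO hearts. They were a probe set of Polr2a, which was 1.87-fold higher (0.90 ± 0.17, adjusted p = 0.00512), and the one of Gtf2h1, which was 1.64-fold higher (0.72 ± 0.15, adjusted p = 0.00873). In the same test 6.27% of all probe sets were called, in either direction. With the array set as a block, 4 of the 13 were called, all higher, against 22.2% of all probe sets. The added probe sets were Cdk8 at 1.46-fold (0.55 ± 0.14, adjusted p = 0.00976) and the brighter Mnat1 probe set at 1.36-fold (0.45 ± 0.15, adjusted p = 0.0384). The median difference was 0.20 over the 13 probe sets and 0.07 over all probe sets. After quantile normalization the medians were 0.11 over the 13 and -0.01 over all, and both calls held. Leaving out 1 array from the blocked fit gave 2 to 5 calls. There were 2 without control replicate 2, and 5 without CKO replicate 5, where Cdk9 (0.42 ± 0.14, adjusted p = 0.0466) was added as higher and Gtf2h4 as lower.

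At 2 weeks, none of the 13 probe sets was called without a block, where 0.00805% of all probe sets were, and 3 of the 13 had an unadjusted p under 0.05, against 1.04% of all probe sets. With the array set as a block, 1 of the 13 was called, the same Polr2a probe set, against 0.0564% of all probe sets. Its difference at 2 weeks, 0.83 ± 0.11 (adjusted p = 0.00479), stood beside 0.88 ± 0.10 at 4 weeks (adjusted p = 1.43e-05) in that fit. The CKO and control arrays of 3 probe sets did not overlap at 4 weeks, with CKO higher for Gtf2h1, Cdk8 and Polr2a, and 8.15% of all probe sets were higher without overlap. At 2 weeks, Gtf2h1 and Polr2a were again higher without overlap, and 1.52% of all probe sets were. No probe set of the 10 genes was lower without overlap at either age, where 4.71% of all probe sets were at 4 weeks and 0.733% at 2 weeks.

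**Figure D1:**
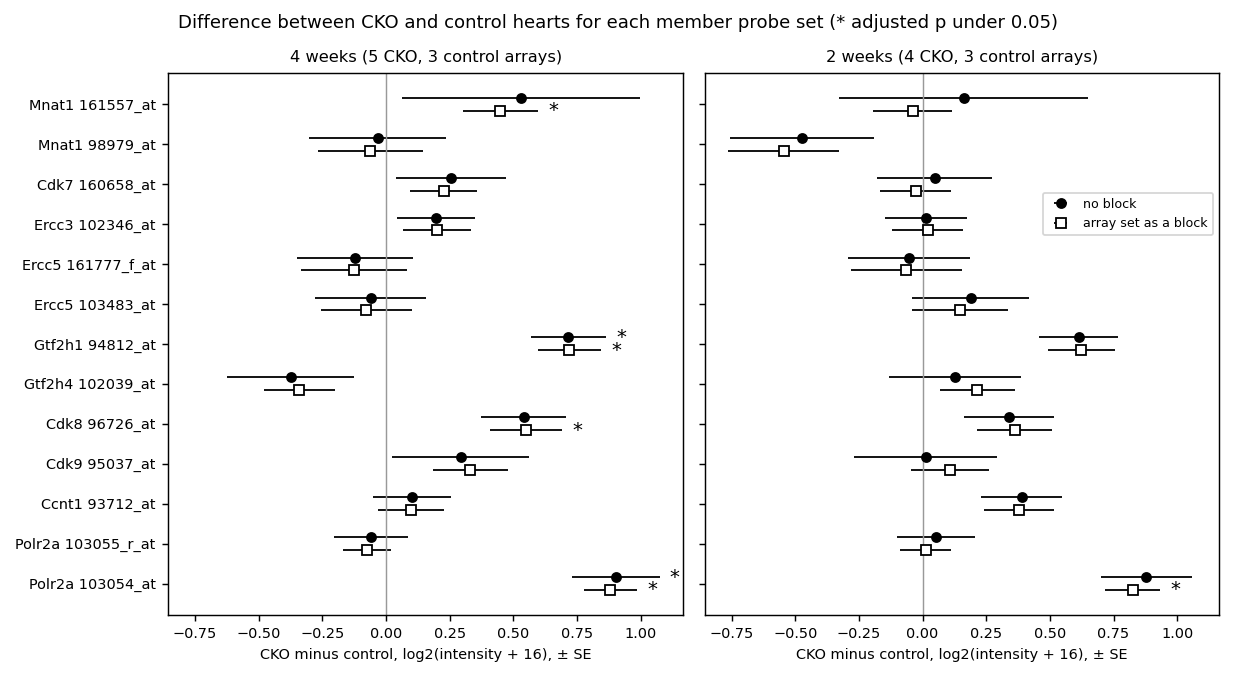
Difference between CKO and control hearts for each of the 13 probe sets at 4 weeks (left) and 2 weeks (right), in log2(intensity + 16), with bars of 1 standard error. Filled circles are the fit without a block, open squares the fit blocked on array set, and asterisks mark an adjusted p under 0.05. Polr2a 103054_at lies near 0.9 in both panels, while Polr2a 103055_r_at lies near 0.

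The promoters of Polr2a, Gtf2h1 and Cdk8, the 3 genes with a probe set higher without overlap at 4 weeks, are printed as 250 bases before to 50 bases after the gene's start, from RefSeq on GRCm38.p6. They are at chr11:69758584-69758883 on the minus strand, chr7:46795844-46796143 on the plus strand and chr5:146231000-146231299 on the plus strand. Capitals mark matches, on either strand, to the TATA box TATAAA, the CCAAT box, the GC box GGGCGG, the ETS site CCGGAAG, the E box CACGTG and the AP-1 site TGANTCA.
Polr2a: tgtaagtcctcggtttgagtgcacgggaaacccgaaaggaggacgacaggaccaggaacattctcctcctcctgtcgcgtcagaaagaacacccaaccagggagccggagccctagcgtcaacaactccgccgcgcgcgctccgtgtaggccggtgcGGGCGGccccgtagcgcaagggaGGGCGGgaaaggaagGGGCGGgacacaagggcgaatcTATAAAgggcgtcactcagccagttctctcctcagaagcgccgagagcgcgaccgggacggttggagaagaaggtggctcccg
Gtf2h1: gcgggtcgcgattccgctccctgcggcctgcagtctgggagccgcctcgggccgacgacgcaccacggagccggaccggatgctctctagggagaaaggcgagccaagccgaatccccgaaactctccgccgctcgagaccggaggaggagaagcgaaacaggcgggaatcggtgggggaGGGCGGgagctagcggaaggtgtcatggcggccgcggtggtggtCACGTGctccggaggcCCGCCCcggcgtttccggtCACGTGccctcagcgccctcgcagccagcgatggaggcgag
Cdk8: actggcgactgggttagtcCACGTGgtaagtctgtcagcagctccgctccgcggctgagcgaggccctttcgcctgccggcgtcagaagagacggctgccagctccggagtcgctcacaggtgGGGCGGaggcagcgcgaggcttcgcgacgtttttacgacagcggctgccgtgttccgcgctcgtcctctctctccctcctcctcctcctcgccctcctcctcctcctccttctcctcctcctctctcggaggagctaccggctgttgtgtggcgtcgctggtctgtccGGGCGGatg
The 3 windows had 63.7% (Polr2a), 71% (Gtf2h1) and 66.7% (Cdk8) of G or C, against a median of 52.7% over the 32851 promoters of the table. All 3 held GC boxes, 3 in Polr2a and 2 each in Gtf2h1 and Cdk8, a motif found in 35.7% of all promoters. Polr2a had 1 TATA box, found in 13.6% of all promoters. Gtf2h1 had 2 E boxes and Cdk8 had 1, a motif present in 7.15% of all promoters. None of the 3 held a CCAAT box, an ETS site or an AP-1 site, which were in 37.4%, 8.86% and 7.81% of all promoters. Members without such a difference shared these traits. Cdk7 and Ccnt1 had 2 GC boxes each and Cdk9 had 1, while Mnat1, Ercc5 and Gtf2h4 had none. Cdk7 also had 1 E box. G or C made up 78.3% of the window of Cdk9, 63.7% of Ccnt1, 54% of Cdk7, 53.3% of Ercc5, 50.7% of Gtf2h4 and 45% of Mnat1. Promoter windows were read for 9 of the 10 genes, all but Ercc3. Entries on 1 chromosome were left out of this reading, so whether Ercc3 has an entry is not given here. These matches describe the letters of the windows and were not tested against the differences.

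Mnat1, the targeted gene, was read by 2 probe sets, and neither showed a loss that passed the test at either age. The brighter one, 161557_at, read 300.3, 314, 148, 141 and 149 on the 5 CKO arrays at 4 weeks, against 244, 106 and 86.0 on the 3 control arrays. At 2 weeks it read 73.1, 111, 296 and 249 on CKO arrays, against 87.9, 119.8 and 255 on control arrays. In each group the high values were those of array set 1, and the groups overlapped at both ages. The array sets differed by 1.2 ± 0.11 for this probe set, set 1 higher, more than the set difference of 92.4% of all probe sets. Without a block, CKO minus control was 0.53 ± 0.47 at 4 weeks and 0.16 ± 0.49 at 2 weeks, with intervals of -0.41 to 1.46 and -0.82 to 1.14.

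Within the array sets, the 161557_at difference at 4 weeks was 0.32 ± 0.14 in set 1 and 0.54 ± 0.21 in set 2, CKO higher in both. Array set 1 holds 1 control array at each age, so every set 1 difference given here assumes that this lone array varies like the other groups of its set. In the fit blocked on array set, it was called higher at 4 weeks (0.45 ± 0.15) and was -0.04 ± 0.16 at 2 weeks. That call was lost in 6 of the 8 fits that left out 1 array, in which adjusted p reached 0.155. It was lost without any of control replicates 1, 2 and 3 and without any of CKO replicates 3, 4 and 5. The Mnat1 call was also lost with quantile normalization added to the block (0.38, adjusted p = 0.0578) and with inferred sex added (0.47, adjusted p = 0.0531). No source used here places these probes inside or outside the floxed segment, and RNA of non-muscle cells is in every sample, so whether this probe set checks the deletion is unknown.

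The second Mnat1 probe set, 98979_at, was dim, with 17.5% of all probe sets at or below its mean. It read 74.3, 67.6, 51.6, 78.3 and 38.9 on CKO arrays at 4 weeks, against 74.3, 40.1 and 79.2 on control arrays. On the 2-week arrays it read 32.5, 23.7, 52.0 and 33.9 on CKO arrays, against 43.0, 41.4 and 86.3 on control arrays. The groups overlapped at both ages, and the set 1 control was the highest of the 2-week arrays. CKO minus control was -0.03 ± 0.27 at 4 weeks and -0.47 ± 0.28 at 2 weeks, neither called, the second with an interval of -1.04 to 0.09. Blocked on array set, the 2-week difference was -0.55 ± 0.22 (adjusted p = 0.912). The 2 probe sets had a Pearson correlation of 0.14 over the 15 arrays once each array set was centred.

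Cdk7, the kinase that MAT1 and cyclin H activate, was read by 1 dim probe set. It read 111, 101, 69.3, 73.4 and 85.6 on CKO arrays at 4 weeks, against 94.9, 55.8 and 64.4 on control arrays, and the groups overlapped. The 2-week values were 61.2, 73.8, 106 and 109 on CKO arrays, against 68.3, 87.7 and 92.0 on control arrays. CKO minus control was 0.26 ± 0.22 at 4 weeks and 0.05 ± 0.23 at 2 weeks. Neither was called, and the 4-week interval of -0.18 to 0.69 spans 0. Cdk7 moved with the array sets (0.44 ± 0.10, set 1 higher), and so did the brighter Mnat1 probe set, with which it correlated at 0.90 over the 15 arrays and at 0.57 after centring each set. Cyclin H, the third member of the kinase module, was not analysed here because no single-symbol probe set named it.

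**Figure D2:**
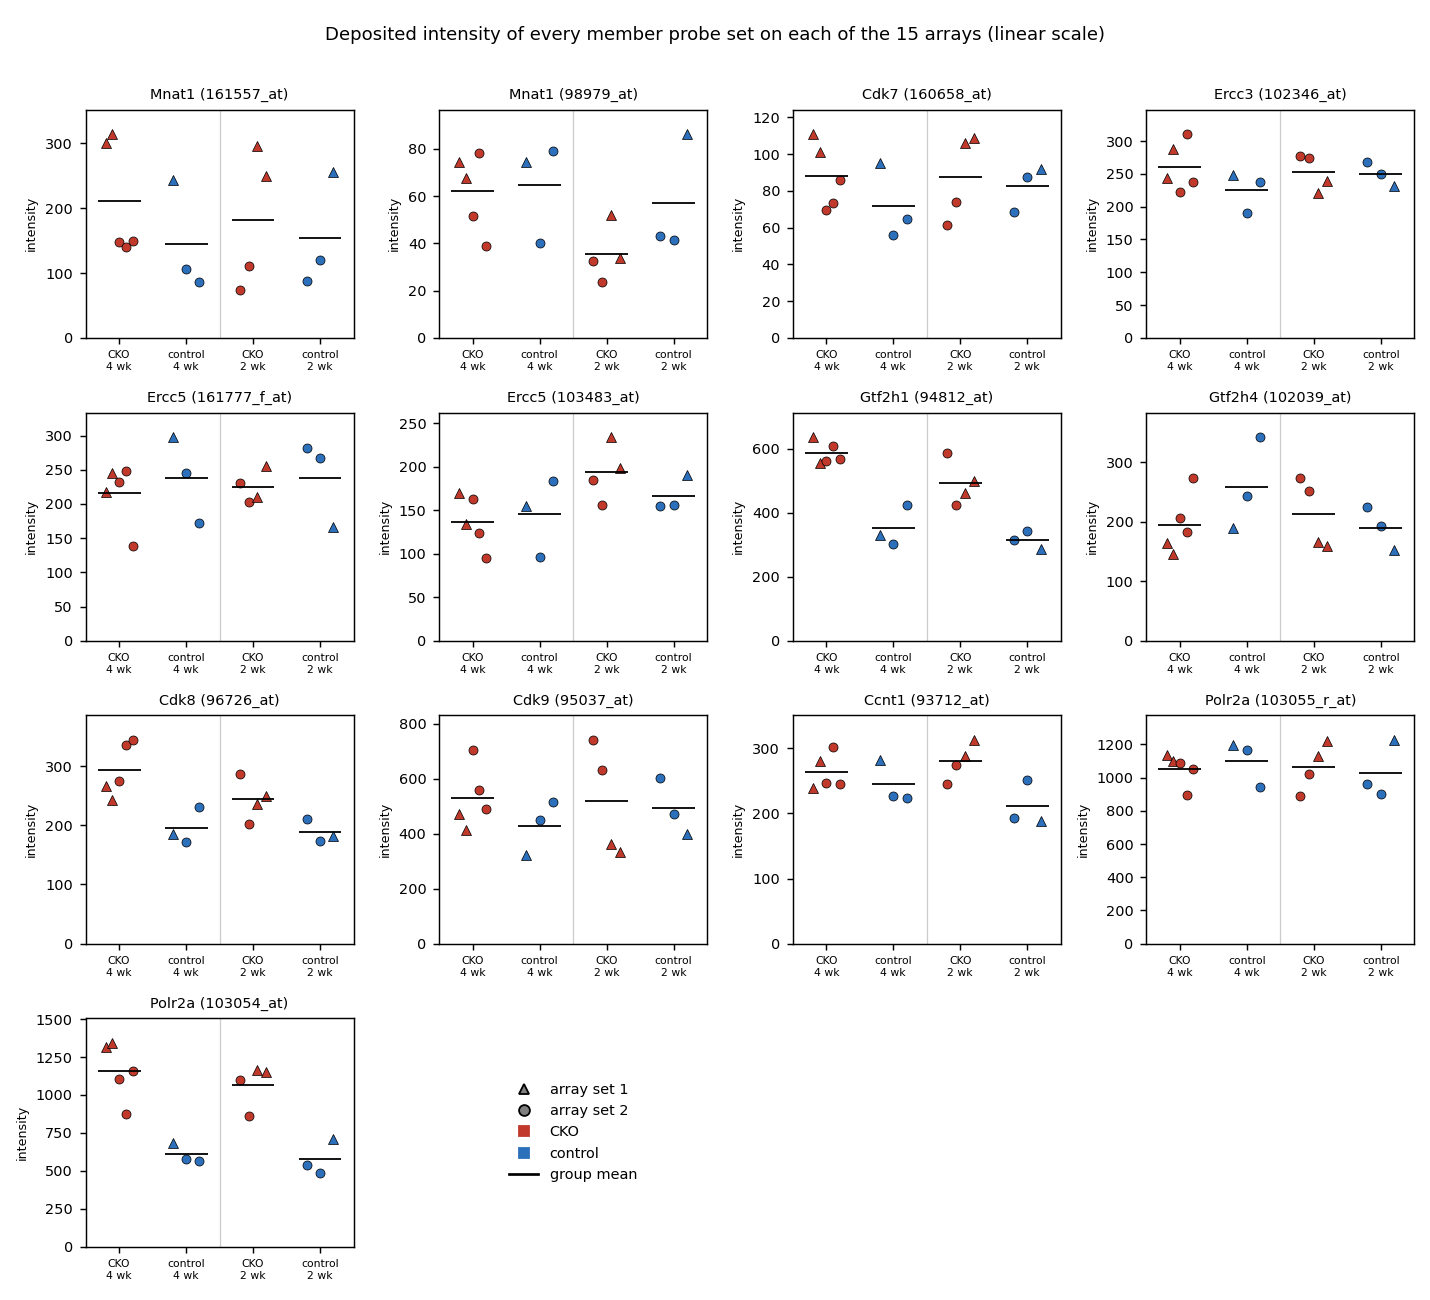
Deposited intensity of each of the 13 probe sets on each of the 15 arrays, on a linear axis that starts at 0, with CKO and control at 4 weeks and then at 2 weeks. Red points are CKO and blue points control, triangles are array set 1, circles array set 2, and horizontal bars are group means. Mnat1 161557_at separates by array set, whereas Gtf2h1 and Polr2a 103054_at separate by genotype.

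In the TFIIH core, Gtf2h1 was higher in CKO hearts and the other subunits were not called. GTF2H1, called p62, anchors regulators and repair factors to the core. Its probe set read 636, 554, 562, 607 and 567 on CKO arrays at 4 weeks, against 331, 302 and 425 on control arrays. Every CKO array was above every control array. The means were 585 ± 35.1 in CKO hearts and 353 ± 64.1 in control hearts (SD, n = 5 and 3).

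At 2 weeks, Gtf2h1 read 587, 423, 459.8 and 499.65 on CKO arrays, against 316, 344 and 285 on control arrays. The groups again did not overlap, and the means were 492 ± 70.2 in CKO and 315 ± 29.3 in control hearts (SD, n = 4 and 3). The 2-week difference of 0.61 ± 0.15 was not called over all probe sets (adjusted p = 1, and 0.2 in the blocked fit). Within the array sets the Gtf2h1 difference was 0.81 ± 0.13 in set 1, with its 1 control array at each age, and 0.67 ± 0.18 in set 2 at 4 weeks, and 0.72 ± 0.13 in set 1 and 0.57 ± 0.20 in set 2 at 2 weeks. The array sets themselves differed by -0.06 ± 0.09 for this probe set. The difference between the 4-week and 2-week effects was 0.10 ± 0.21. Without control replicate 2 at 4 weeks the unblocked 4-week difference was 0.62 with an adjusted p of 0.0713, no longer called. It was also not called under median scaling (0.64, adjusted p = 0.0601) or under the replicate block (0.71, adjusted p = 0.0751). Blocked on array set and inferred sex, the 4-week Gtf2h1 difference was 0.75 ± 0.14 (adjusted p = 0.000952).

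Ercc3, the helicase that opens the promoter, read 243, 288, 223, 311 and 238 on CKO arrays at 4 weeks, against 248, 189.7 and 238 on control arrays. The groups overlapped, and the difference was 0.20 ± 0.15 at 4 weeks and 0.01 ± 0.16 at 2 weeks, where all 7 arrays lay between 221 and 277. Gtf2h4, the subunit called p52 that holds ERCC3 in the core, read 164, 146, 206, 184 and 274 on CKO arrays at 4 weeks, against 189.9, 244 and 343 on control arrays. It was the only one of the 10 genes whose 4-week value was below -0.3, at -0.38 ± 0.25 (adjusted p = 0.56), and -0.34 ± 0.14 in the blocked fit (adjusted p = 0.0989). Without CKO replicate 5 the blocked Gtf2h4 difference was -0.42 ± 0.14 and was called (adjusted p = 0.0389). The groups overlapped, and at 2 weeks CKO minus control was 0.13 ± 0.26. The change of that effect between the ages was -0.55 ± 0.20 with the block, not called (adjusted p = 0.136).

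Ercc5 was read by 2 probe sets, of which 161777_f_at carries the suffix Affymetrix uses for probes that can match related sequences. Its values at 4 weeks ran from 139 to 248 on CKO arrays and from 172 to 298 on control arrays. The other, 103483_at, ran from 94.8 to 169.9 on CKO arrays and from 96.8 to 184 on control arrays. The groups overlapped for both probe sets. The 4-week differences were -0.12 ± 0.23 and -0.06 ± 0.22, and the 2-week differences -0.05 ± 0.24 and 0.19 ± 0.23, none called.

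Cdk8, the kinase of the Mediator complex, was higher in CKO hearts at 4 weeks in the fit with the array set as a block. It read 266, 242, 275, 336 and 344 on CKO arrays, against 185, 171 and 232 on control arrays, and the groups did not overlap. The gap was narrow, with the lowest CKO array at 242 and the highest control array at 232. The means were 293 ± 45.1 in CKO and 196 ± 31.6 in control hearts (SD, n = 5 and 3). Without a block the difference was 0.54 ± 0.17 and missed the threshold (adjusted p = 0.0774). The blocked call was lost without control replicate 2 (adjusted p = 0.0699). At 2 weeks Cdk8 read 287, 202, 236 and 250.1 on CKO arrays, against 211, 173 and 182 on control arrays. There 1 CKO array, replicate 2, lay inside the control range, and the difference was 0.34 ± 0.18, not called.

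The subunits of P-TEFb were not called at either age. Cdk9 read 473, 412, 706, 560.1 and 492 on CKO arrays at 4 weeks, against 322, 449 and 516 on control arrays. The 2-week values were 741, 633, 361 and 335 on CKO arrays, against 603, 473 and 399.97 on control arrays. In each group, the arrays of set 1 were the lowest, and the sets differed by -0.58 ± 0.11. CKO minus control was 0.29 ± 0.27 at 4 weeks and 0.01 ± 0.28 at 2 weeks without a block, and 0.33 ± 0.15 at 4 weeks with it (adjusted p = 0.126).

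Ccnt1, which encodes the cyclin that activates CDK9, read 239.65, 279.8, 247, 302 and 246 on CKO arrays at 4 weeks, against 282, 227 and 224 on control arrays. The difference was 0.10 ± 0.15, and the groups overlapped. On the 2-week arrays it read 245, 274, 288 and 313 on CKO arrays, against 193, 252 and 188 on control arrays. Only 1 CKO array lay below the highest control array. The 2-week difference of 0.39 ± 0.16 had an unadjusted p of 0.0282 and an adjusted p of 1.

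Polr2a was read by 2 bright probe sets that gave different results. The probe set 103054_at read 1316, 1344, 1105, 877 and 1157 on CKO arrays at 4 weeks, against 680.4, 580.2 and 563 on control arrays. At 2 weeks it read 1099, 863, 1161 and 1148 on CKO arrays, against 536, 484 and 709.6 on control arrays. At each age every CKO array was above every control array, and the lowest of the 9 CKO arrays, at 863, was above the highest of the 6 control arrays, at 709.6. The means were 1159.7 ± 188 in CKO and 608 ± 63.3 in control hearts at 4 weeks (SD, n = 5 and 3). At 2 weeks they were 1068 ± 139 in CKO and 577 ± 118 in control hearts (SD, n = 4 and 3).

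The fold of Polr2a 103054_at was 1.87 at 4 weeks and 1.84 at 2 weeks, and the difference between the effects was 0.02 ± 0.25 with an interval of -0.47 to 0.52. The 2-week difference of 0.88 ± 0.18 had an adjusted p of 0.547 without a block, in a comparison where 1 probe set of the array was called. Within the array sets it was 0.95 ± 0.08 in set 1, with its 1 control array at each age, and 0.84 ± 0.15 in set 2 at 4 weeks, and 0.69 ± 0.08 in set 1 and 0.91 ± 0.17 in set 2 at 2 weeks. Blocked on array set and inferred sex, it was 0.93 ± 0.11 at 4 weeks and 0.82 ± 0.11 at 2 weeks (adjusted p = 2.39e-05 and 0.00605). The 4-week call held in 8 of 8 fits that left out 1 array, with differences of 0.85 to 1.00, and the blocked 2-week call in 7 of 7, with differences of 0.74 to 0.89.

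The other Polr2a probe set, 103055_r_at, read 1136, 1098, 1087, 898 and 1054 on CKO arrays at 4 weeks, against 1197, 1165 and 942 on control arrays. At 2 weeks it read 889.8, 1022, 1132 and 1221 on CKO arrays, against 959, 901 and 1227 on control arrays. The groups overlapped at both ages. Its differences were -0.06 ± 0.15 at 4 weeks and 0.05 ± 0.15 at 2 weeks, with intervals of -0.35 to 0.23 and -0.25 to 0.36 that exclude the 0.90 and 0.88 of 103054_at. The 2 probe sets correlated at -0.04 over the 15 arrays after centring each array set. The suffix of 103055_r_at is the one Affymetrix gives when its rules for choosing probes were relaxed. Probe sequences were not used here, and which part of the Polr2a transcript each probe set reads was not analysed here. The statement that Polr2a was higher therefore rests on 1 of its 2 probe sets. When each gene was read by its brightest probe set, Polr2a was read by 103055_r_at and was not called (-0.06 ± 0.15, adjusted p = 0.903).

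**Figure D3:**
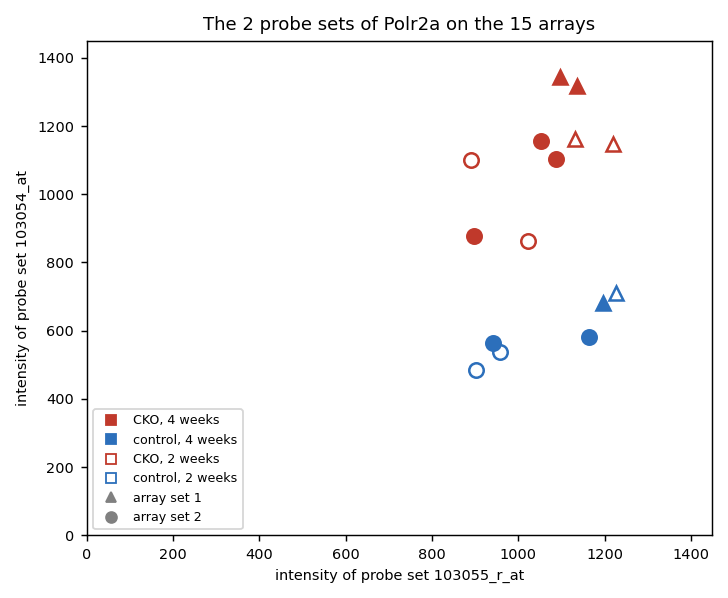
Intensity of Polr2a probe set 103054_at (vertical) against 103055_r_at (horizontal) on the 15 arrays, both axes linear from 0. Red is CKO, blue is control, filled symbols are 4 weeks, open symbols 2 weeks, triangles array set 1 and circles array set 2. The CKO arrays lie between 863 and 1344 on the vertical axis and the control arrays between 484 and 709.6, while both groups share the range of the horizontal axis.

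Gtf2h1, Cdk8 and Polr2a 103054_at were the probe sets higher in CKO hearts without overlap at 4 weeks. Correlations among them over all arrays still held that difference, so high values were built in and show nothing beyond it. Correlation within the groups was not tested. After centring each array set, Gtf2h1 correlated with Polr2a at 0.90 and with Cdk8 at 0.90, and Cdk8 with Polr2a at 0.83, over the same 15 arrays, which share the difference between the genotypes. Of all other named genes, those closest to Polr2a 103054_at in the same measure were Tpm2, a tropomyosin (0.95), Tnfaip1 (0.94) and Ank1, an ankyrin (0.93). Those closest to Gtf2h1 were Becn1, the autophagy protein beclin (0.94), Ddit3, the stress factor CHOP (0.93), and Htra2, a mitochondrial protease (0.93).

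The array sets moved the 10 genes unequally. The set difference was largest for Mnat1 161557_at (1.2), then for Cdk9 (-0.58) and Gtf2h4 (-0.52), beside a median size of 0.47 over all probe sets. It was 0.32 ± 0.08 for Polr2a 103054_at, -0.13 ± 0.10 for Cdk8 and -0.06 ± 0.09 for Gtf2h1. The 3 genes that were higher without overlap at 4 weeks thus had set differences smaller in size than the median of the array.

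**Figure D4:**
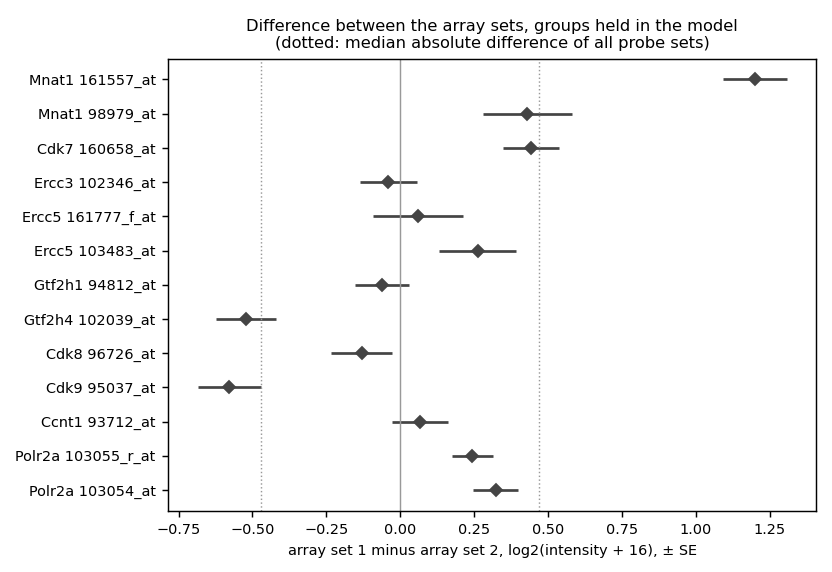
Difference between array set 1 and array set 2 for each of the 13 probe sets, in log2(intensity + 16) with bars of 1 standard error, from the model that also holds the 4 groups. Dotted lines mark the median size over all probe sets, 0.47. Mnat1 161557_at stands at 1.2, and Gtf2h1 and Cdk8 lie near 0.

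With age, none of the 13 probe sets was called without a block, in CKO hearts (3.33% of all probe sets called) or in control hearts (0.338%). An unadjusted p under 0.05 was found for 2 of the 13 in CKO hearts, Mnat1 98979_at and Ercc5 103483_at, against 12.2% of all probe sets, and for 0 in control hearts, against 5.41%. No probe set of the 10 genes separated the ages without overlap in either genotype. In CKO hearts 4.27% of all probe sets were higher and 2.96% lower at 4 weeks without overlap, and in control hearts 4.49% were higher and 4.21% lower. Blocked on array set, 1 was called in CKO hearts, Mnat1 98979_at, which was higher at 4 than at 2 weeks (0.64 ± 0.19, adjusted p = 0.0317), against 14.3% of all probe sets. That call was lost in 5 of 9 fits that left out 1 array, in which adjusted p reached 0.104. They were the fits without CKO replicates 1, 3 or 4 at 4 weeks, or without CKO replicates 2 or 4 at 2 weeks. Without CKO replicate 3 at 4 weeks, Ercc5 103483_at was called instead, lower at 4 weeks (-0.53 ± 0.16, adjusted p = 0.0441). Without CKO replicate 3 at 2 weeks, Mnat1 161557_at was called as well, higher at 4 weeks (0.49 ± 0.14, adjusted p = 0.0385). In control hearts Mnat1 98979_at was at 0.16 ± 0.23 with age in the blocked fit. There 0 of the 13 were called, against 2.97% of all probe sets. An unadjusted p under 0.05 was found for 1, Gtf2h4 at 0.39 ± 0.16, against 14.9% of all probe sets.

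A difference between the CKO effects at 4 and at 2 weeks was called for none of the 13 probe sets. In this comparison 0.531% of all probe sets were called without a block and 5.5% with it, and 0 and 2 of the 13 had an unadjusted p under 0.05, against 6.88% and 18.2% of all probe sets. The 2 were Mnat1 161557_at (0.49 ± 0.21, adjusted p = 0.232) and Gtf2h4. Polr2a 103054_at and Gtf2h1 had differences between the effects of 0.06 ± 0.15 and 0.10 ± 0.18 in the blocked fit.

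The other genes of the pathway were read from 7 lists with 52 genes, of which 30 had 40 single-symbol probe sets. Of those 40, 3 were called at 4 weeks without a block, all higher in CKO hearts, against 6.27% of all probe sets. The median difference of the 40 was 0.05, beside 0.07 over all probe sets. The blocked fit called 8 higher and 2 lower, against 22.2% of all probe sets. None was called at 2 weeks in either fit, against 0.00805% of all probe sets without a block and 0.0564% with it. Between 4-week and 2-week CKO hearts, Ddb1 (0.60 ± 0.10, adjusted p = 0.00433) and Polr2l (0.43 ± 0.11, adjusted p = 0.0382) were called higher at 4 weeks without a block. In that comparison 3.33% of all probe sets were called.

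Ddb1, a subunit of the complex that senses ultraviolet damage, rose most among the called genes of the lists without a block. Its called probe set read 2473, 2309.9, 2232, 2179.9 and 2518 on CKO arrays at 4 weeks, against 1169, 985 and 1125 on control arrays (1.09 ± 0.11, adjusted p = 5.84e-05), with no overlap. At 2 weeks the Ddb1 difference was 0.17 ± 0.12, and the change of the CKO effect between the ages was called (0.92 ± 0.16, adjusted p = 0.0248). A second bright Ddb1 probe set was 0.91 ± 0.09 higher at 4 weeks with the block, and the third, which was dim, was at -0.18 ± 0.25. Ddb1 had the only 1 of the 13 probe sets of repair partners that was called without a block. With the block 2 rose and 1 fell, the last being Ercc1, a subunit of the repair nuclease (-0.42 ± 0.13).

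Of the 9 probe sets of other RNA polymerase II subunits, 1 was called at 4 weeks without a block, Polr2l, a small subunit shared by all nuclear polymerases. It read 3581, 3612, 3134, 2655 and 2667 on CKO arrays, against 2019, 1915 and 2119 on control arrays (0.62 ± 0.12, adjusted p = 0.00492). With the block, Polr2d (0.45 ± 0.13) and Polr2j (0.31 ± 0.08) were also higher. The other 6 were not called and lay between -0.34 and 0.19. Of the 4 probe sets of tail kinases and phosphatases outside the 10 genes, Ssu72, a tail phosphatase, was called without a block (0.66 ± 0.18, adjusted p = 0.0449). With the block, the 2 probe sets of the phosphatase gene Ctdsp2 were called in opposite directions (0.38 ± 0.11 and -0.34 ± 0.09).

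No probe set was called without a block among the 2 of Ercc2, the only other TFIIH subunit read, the 5 of P-TEFb regulators, the 2 of the Mediator kinase module or the 5 of cell-cycle CDKs that CDK7 activates. Ercc2, the second helicase of TFIIH, was at 0.23 ± 0.26 and 0.28 ± 0.21 at 4 weeks. Ccnc (cyclin C) and Med12, partners of CDK8, were at 0.19 ± 0.30 and -0.01 ± 0.24. With the block, Cdk1, the mitotic kinase, was higher at 4 weeks (1.28 ± 0.33, adjusted p = 0.00941). It read 97.9, 91.3, 152, 138 and 233 on CKO arrays, against 44.4, 44.6 and 60.6 on control arrays, with no overlap. At 2 weeks Cdk1 read 304, 277, 42.3 and 64.5 on CKO arrays, against 186, 86.8 and 73.4 on control arrays, overlapping. The 4-week CKO arrays thus lay within the range of the 2-week CKO arrays. Every 4-week control array was below every 2-week control array.

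**Figure D5:**
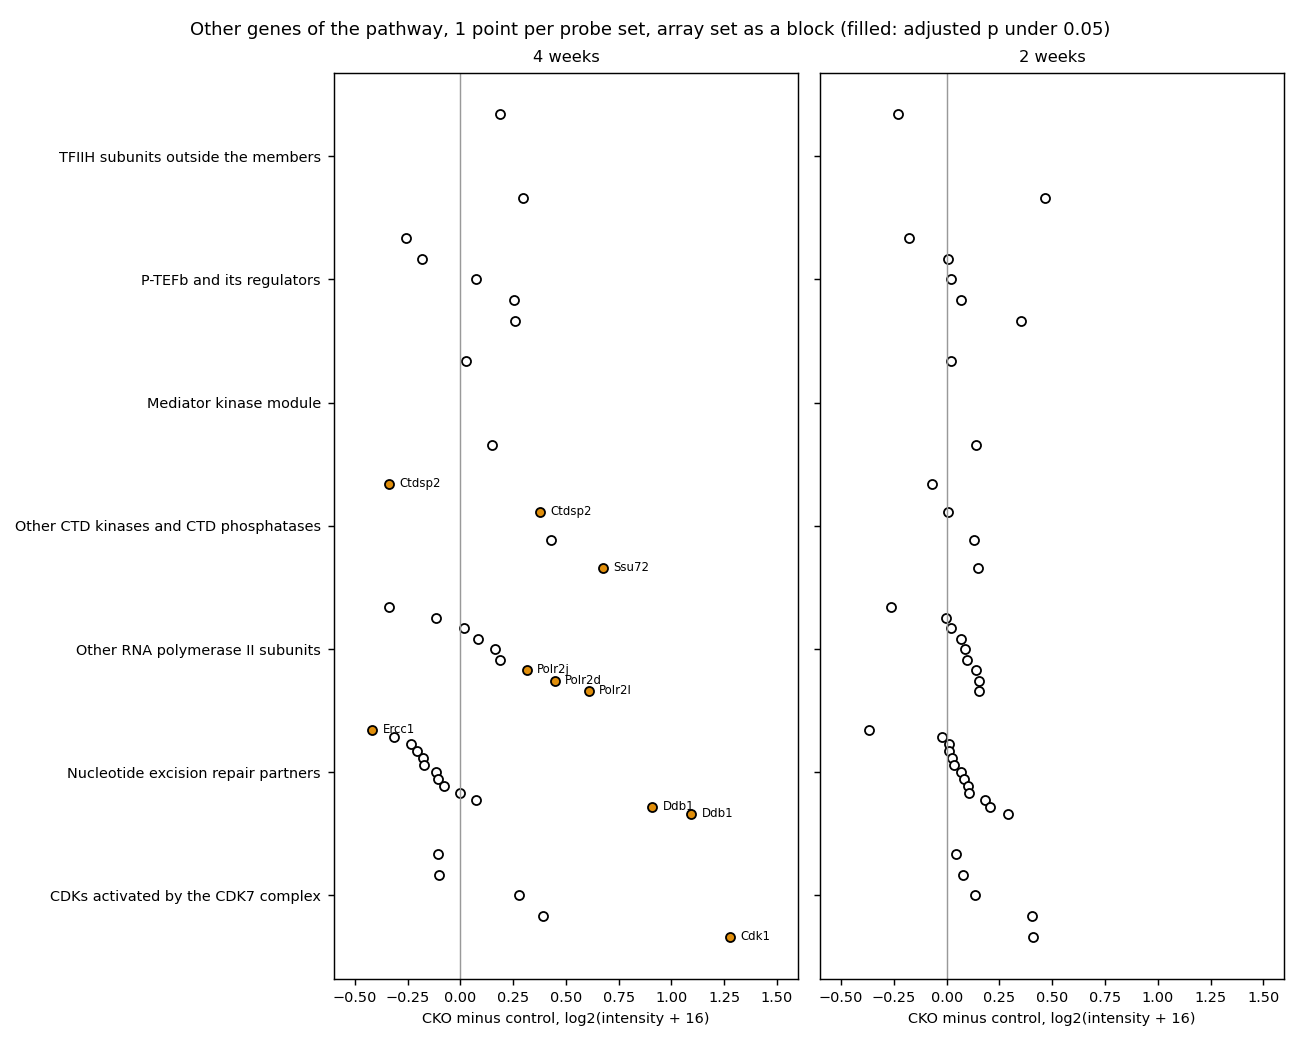
Difference between CKO and control hearts for the 40 probe sets of the 7 lists at 4 weeks (left) and 2 weeks (right), in log2(intensity + 16) with the array set as a block. Each point is a probe set, and filled, named points have an adjusted p under 0.05. All 10 filled points are at 4 weeks, 8 above 0 and 2 below.

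The tissue expressed heart muscle markers in every group, and markers of other cells moved beside the 10 genes. At 4 weeks, 10 of the 13 fibroblast and matrix probe sets were called higher without a block. Their summed intensity was 26182 to 33529.6 on CKO arrays and 12597 to 13599.8 on control arrays, while 4 of the 7 heart muscle probe sets were lower. From 2 to 4 weeks, the fibroblast and matrix probe sets had a median difference of -1.08 in control hearts and 0.15 in CKO hearts. Without a block, 1 of the 13 was called lower in control hearts (0.338% of all probe sets called) and 1 higher in CKO hearts (3.33%). The heart muscle sum was 49165 to 51346 on CKO arrays, against 58634 to 60438 on control arrays. Of the 5 smooth muscle probe sets 2 were higher and of the 7 endothelial ones 1, and 0 of 9 macrophage, 7 lymphocyte and 2 erythroid probe sets were called. No marker was at the floor of the array on all arrays.

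At 2 weeks, none of the marker probe sets was called. The fibroblast and matrix sum was 18202 to 30645 on CKO arrays and 17224 to 25081 on control arrays, overlapping. The smooth muscle sum was 5437 to 7316 on CKO arrays and 4099.6 to 5071 on control arrays, without overlap. Such a sum gives most weight to bright probe sets. Taken singly, the 5 smooth muscle probe sets had unblocked differences from -0.17 to 0.58, with a median of -0.01. Their blocked differences ran from -0.17 to 0.63, with a median of 0.12. The Polr2a 103054_at difference at that age was 0.88 ± 0.18. The part of these cells in the 4-week values of Gtf2h1, Cdk8 and Polr2a was not tested. In RNA of heart tissue, fewer cells of a type and less RNA per cell cannot be told apart.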

How the data were processed

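The authors deposited 1 intensity per probe set and array on a linear scale. No source used here names the software, background correction or scaling behind these intensities, and the lowest deposited value was 0.95 on every array. Per the labels' protocols, RNA was extracted with Trizol and purified on columns. The ratio of the highest to the lowest array median was 1.248, within the limit set for keeping the deposited scaling. Values were used as log2(intensity + 16), and folds on this scale understate changes of dim probe sets. Of the probe sets, 10833 had a single gene symbol in the annotation, 396 had several and 1193 had none.

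Each group had 1 coefficient in a limma fit (3.58.1, R 4.3.3) to the 15 arrays together, with eBayes and an intensity trend. Tests were two-sided, and p-values were adjusted by Benjamini-Hochberg over the 12422 probe sets. The fit was also run on simulated arrays with independent normal noise and the same change in CKO hearts of both ages. The pass rule of that run was only that the mean change was recovered, which does not test the calls given here. The alternatives were other scalings, pseudocounts, filters, weights and blocks, and each array left out in turn. No probe set was left out. The number of arrays limits precision. The array sets came from average-linkage clustering of 1 minus Pearson r. Replicate numbers of the titles were checked by correlating deviations from group means: at 2 weeks the 3 numbered pairs gave 0.66, 0.59 and 0.85, and each pair lay in 1 array set, while at 4 weeks they gave 0.79, -0.52 and 0.47. The 4-week pairs at 0.79 and 0.47 also lay in 1 array set each, and the pair at -0.52 lay across the sets. The deviations still held the array set, so this check cannot tell pairing from array set. Whether the numbers pair arrays is therefore unknown at both ages. At 2 weeks the replicate block changed no call among the 13 probe sets. Named genes were all members, called genes of the lists (at most 4 a list by smallest p), and the 3 genes most correlated with a called member. Outside that rule, Ercc2, Ccnc and Med12 were named though not called, and cyclin H as not read. Members, lists and the array set split were chosen with earlier results of these data known.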

Additional observations from a re-analysis of the deposited data

Results flagged for a closer look

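Of the 26 groups of 4 or 5 arrays tested among the 13 probe sets, 1 held an array far from the others. Ercc5 161777_f_at read 139.1 on CKO replicate 5 at 4 weeks, while the other 4 CKO arrays of that age read 217 to 248. The gap to the nearest array was 0.767 of the range of the group on the log2 scale. Chance flags about 1 in 20 such groups.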

How the results depend on the processing

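At 4 weeks 2 of the 13 probe sets were called, and 1 (Polr2a 103054_at) under median scaling, under the replicate block and under the replicate block with arrays of that age only. The array set block gave 4, and leaving out each array gave 1 to 2, with 1 without control replicate 2. In these settings Gtf2h1 was the call lost, at 0.64 (adjusted p = 0.0601) under median scaling, 0.71 (adjusted p = 0.0751) under the replicate block and 0.71 (adjusted p = 0.0928) with that age only. At gene level, where 8 of the 10 genes, read by their brightest probe set, were left after the dimmest 40% of genes (Mnat1 and Cdk7 among them) were removed, 2 were called, Gtf2h1 and Cdk8, and the Polr2a call was lost because 103055_r_at stood for the gene (-0.06, adjusted p = 0.903). Leaving out each array from the blocked fit gave 2 to 5. At 2 weeks 0 were called, and 1, again Polr2a 103054_at, under the array set block, that block with quantile normalization (0.77) and blocks for array set and inferred sex. For 4 against 2 weeks in CKO hearts 0 were called, and 1 under the array set block, with 0 to 2 when each array was left out of that fit. Cdk8 at 4 weeks was also called with the dimmest 40% of probe sets left out (adjusted p = 0.049), at gene level (0.044) and with array weights (0.00587). The 2 probe sets called at 4 weeks without a block kept their sign there in every setting run, apart from that exchange of the Polr2a probe set. Mnat1 161557_at, called with age in CKO hearts in 1 blocked fit, did not. Its difference with age ran from -0.04 to 0.57 when each array was left out of the unblocked fit. Over all probe sets, 479 higher and 300 lower calls at 4 weeks stood against 365 and 410 after quantile normalization, where the median of all probe sets was -0.01, against 0.07 as deposited. With the array set block the split was 1804 higher and 956 lower, and 1403 and 1300 with quantile normalization added. Counts over all probe sets at 4 weeks ran from 372 (replicate block) to 2760 (array set block), and from 342 to 787 leaving out each array. At 2 weeks they ran from 0 to 7, for the difference between the effects from 4 to 764 and up to 910 leaving out 1 array from the blocked fit, and with age from 0 to 564 in control and 189 to 1858 in CKO hearts. The causes were not tested. Dim probe sets, such as Mnat1 98979_at and Cdk7, limit what the arrays can resolve.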
